A study of Mus musculus with 14 samples.

Results

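The genes described here encode subunits of the Polycomb repressive complexes in mouse embryonic stem (ES) cells. They are *Ezh2*, *Eed*, *Suz12*, *Mtf2*, *Phf1*, *Phf19*, *Rnf2*, *Ring1*, *Pcgf1* and *Pcgf6*, given as a list of names, 10 of the 23298 genes in the deposited table, with no threshold on their values. RNA was sequenced from 14 independent ES cell lines, each of which came from 1 blastocyst, so that a line stands for 1 embryo. BC lines came from C57BL/6J females mated with CAST/EiJ males (3 XX, 3 XY and 2 XO lines), and CB lines came from the reciprocal cross of CAST/EiJ females with C57BL/6J males (3 XX and 3 XY lines). All lines were grown untreated in serum with leukemia inhibitory factor on inactivated fibroblast feeders, which were depleted before RNA isolation, and all are F1 hybrids. Each value is a read count of a gene that the authors scaled to a common depth, called the scaled read signal below.

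Polycomb proteins keep developmental genes silent. Polycomb repressive complex 2 (PRC2) methylates histone H3 at H3K27 through the enzyme Ezh2, which needs Eed and Suz12 to work, while Mtf2, Phf1 and Phf19 are alternative Polycomb-like partners that help to bring PRC2 to unmethylated CpG-rich DNA. Polycomb repressive complex 1 (PRC1) ubiquitinates histone H2A through the RING proteins Rnf2 (Ring1b) or Ring1 (Ring1a), and the Pcgf subunit at its side defines the type of complex. Pcgf1 and Pcgf6 belong to variant PRC1, which can be targeted independently of the PRC2 mark. In ES cells these complexes hold lineage genes in a poised state.

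Promoters are shown for the 2 members that passed a test (*Rnf2* and *Phf1*), for *Ring1*, the paralog of *Rnf2*, and for the 3 members with a match to an E2F motif (*Ezh2*, *Suz12* and *Phf19*). E2F motifs are bound by the factors that time expression in the cell cycle. RefSeq promoters on GRCm38.p6, from 250 bases before to 50 bases after the start, were found for 9 of the 10 members, and *Pcgf1* had no entry. The sequences read 5′ to 3′ on the gene's strand, and capitals mark matches on either strand to the E2F motifs TTTCCCGC and TTTGGCGC, the NRF1 motif GCGCATGC, the ETS motif CCGGAAG, the NFY motif CCAAT, the CRE motif TGACGTCA, the YY1 motif AAGATGGCG or the SP1 motif GGGCGGG. Overlapping SP1 matches run together as 1 stretch of capitals.
Rnf2, chr1:151500942-151501241, minus strand: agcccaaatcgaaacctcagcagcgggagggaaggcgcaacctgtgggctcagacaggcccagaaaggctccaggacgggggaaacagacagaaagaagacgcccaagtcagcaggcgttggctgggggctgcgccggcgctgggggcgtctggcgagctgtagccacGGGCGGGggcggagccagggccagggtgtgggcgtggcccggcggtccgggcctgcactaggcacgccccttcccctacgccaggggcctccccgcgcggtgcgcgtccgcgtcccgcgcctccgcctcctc
Phf1, chr17:26932877-26933176, plus strand: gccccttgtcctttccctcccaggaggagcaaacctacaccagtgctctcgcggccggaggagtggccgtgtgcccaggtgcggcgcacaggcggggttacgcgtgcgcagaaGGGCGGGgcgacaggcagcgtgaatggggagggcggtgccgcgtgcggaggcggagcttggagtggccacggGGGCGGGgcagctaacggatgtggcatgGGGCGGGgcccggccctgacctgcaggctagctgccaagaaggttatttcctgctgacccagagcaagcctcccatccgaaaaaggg
Ring1, chr17:34024631-34024930, minus strand: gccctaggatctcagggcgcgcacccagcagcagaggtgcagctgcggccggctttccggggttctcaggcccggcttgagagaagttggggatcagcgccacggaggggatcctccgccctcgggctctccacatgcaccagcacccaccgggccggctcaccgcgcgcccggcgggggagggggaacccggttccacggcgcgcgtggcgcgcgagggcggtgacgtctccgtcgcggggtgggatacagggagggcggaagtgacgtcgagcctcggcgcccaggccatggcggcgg
Ezh2, chr6:47594981-47595280, minus strand: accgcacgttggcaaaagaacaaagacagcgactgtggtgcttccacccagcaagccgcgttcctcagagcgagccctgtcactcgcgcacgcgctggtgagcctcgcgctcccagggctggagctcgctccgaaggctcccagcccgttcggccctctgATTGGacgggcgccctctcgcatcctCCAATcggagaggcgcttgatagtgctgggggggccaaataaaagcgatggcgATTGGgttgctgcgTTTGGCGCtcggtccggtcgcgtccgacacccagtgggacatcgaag
Suz12, chr11:79992856-79993155, plus strand: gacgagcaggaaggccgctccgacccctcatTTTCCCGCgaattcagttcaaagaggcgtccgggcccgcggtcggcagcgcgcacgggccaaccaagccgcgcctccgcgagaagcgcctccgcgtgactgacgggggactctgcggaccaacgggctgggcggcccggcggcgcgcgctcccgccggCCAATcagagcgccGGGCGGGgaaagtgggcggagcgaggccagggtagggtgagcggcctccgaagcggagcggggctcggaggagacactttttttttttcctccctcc
Phf19, chr2:34913927-34914226, minus strand: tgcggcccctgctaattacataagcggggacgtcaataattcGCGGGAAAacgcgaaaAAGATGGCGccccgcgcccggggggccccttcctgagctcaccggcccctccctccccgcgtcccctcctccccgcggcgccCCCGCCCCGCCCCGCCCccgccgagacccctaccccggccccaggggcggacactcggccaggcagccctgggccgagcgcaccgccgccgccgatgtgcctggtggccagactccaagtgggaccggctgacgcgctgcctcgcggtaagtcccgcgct

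Counted from the start site, the E2F match began at position 4 in *Ezh2*, at -219 in *Suz12* and at -208 in *Phf19*. The form TTTCCCGC, on either strand, was held by 1.07% of the 32851 mouse promoters of the same length, and TTTGGCGC by 0.514%. *Phf1* had 3 matches to the SP1 motif and *Rnf2* had 1, and 25.6% of all promoters had at least 1. No searched motif was found in the window of *Ring1*. *Ezh2* had 3 matches to the NFY motif, which 37.4% of all promoters held. The YY1 motif matched in *Phf19* is held by 1.4% of promoters, while NRF1 (2.71%), ETS (8.86%) and CRE (1.79%) motifs had no match in any member promoter. CpG dinucleotides numbered 30 in *Rnf2*, 24 in *Phf1*, 37 in *Ring1*, 31 in *Ezh2*, 41 in *Suz12* and 38 in *Phf19*, against a median of 7 and a 90th percentile of 31 over all promoters. Thus the printed promoters lie in the CpG-rich part of the range, and *Rnf2* and *Phf1* hold no E2F match in this window.

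Several properties of the lines bear on the values. CB XY lines 2 and 3, against their label, had *Uty*, a Y-linked gene, at 19.6 and 45.4, within the 12.8 to 195 of the XX lines. The other XY lines had 945 to 2088. Calls in which the CB XY lines take part are also given without CB XY 2 and CB XY 3, except calls reached only under an alternative setting. All 10 ES cell markers examined were present in every line, with a lowest value of 368. The mean log2 level of 20 fibroblast markers was 10.3 to 11.4 in BC XX lines and 7.68 to 9.50 in all other lines. Genes on chromosome 6 were raised in CB XX 1, CB XY 2 and CB XY 3, by a median of 0.23, 0.29 and 0.25 on the log2 scale, and genes on chromosome 1 were raised by 0.30 in CB XX 1. The step of 1 read in the values gave depths of 1.19e+07 to 6.96e+07 reads per line, with the CB XY lines lowest (1.19e+07 to 2.19e+07). The smallest number of reads behind any member was 51.0, for *Pcgf1* in CB XY 1, so that all members lay well above the 3 reads that cannot be told from 0.

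Levels were first compared between members, as scaled read signal per kb of merged exon. *Suz12*, *Eed* and *Mtf2* stood at the top, *Ezh2* in the middle, and *Phf1* and *Ring1* at the bottom. The medians over 14 lines were 3127 for *Suz12*, 2930 for *Eed*, 2123 for *Mtf2*, 1240 for *Rnf2*, 735 for *Ezh2*, 691 for *Pcgf6*, 166 for *Pcgf1*, 161 for *Phf19*, 61.1 for *Phf1* and 49.3 for *Ring1*. Neighbours in this order were not always apart. *Suz12* was above *Eed* in 8 of 14 lines, *Ezh2* above *Pcgf6* in 7 and *Pcgf1* above *Phf19* in 7, so that these pairs did not differ beyond their spread. *Eed* was above *Mtf2*, *Mtf2* above *Rnf2*, *Pcgf6* above *Pcgf1* and *Phf19* above *Phf1* in all 14 lines.

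Related subunits differed in level. The signal per kb of *Rnf2* was 744 to 1587, against 25.1 to 99.0 for its paralog *Ring1*, and the ranges did not overlap. Among the Polycomb-like genes, *Mtf2* was at 1612 to 2740, *Phf19* at 58.6 to 287 and *Phf1* at 42.5 to 125, so that *Mtf2* stood apart while the ranges of *Phf19* and *Phf1* overlapped. These levels depend on the gene length used. With the longest transcript in place of merged exons, *Ezh2* moved above *Rnf2*, *Phf19* above *Pcgf1* and *Ring1* above *Phf1*. In mm9, *Ezh2* (chr6:47480273-47545340) overlaps *Gm17629*, *Suz12* (chr11:79806608-79847625) overlaps *Gm16706*, *Phf19* (chr2:34749277-34769546) overlaps *Gm13448* and *Mtf2* (chr5:108494693-108538023) overlaps *Tmed5*, each on the opposite strand. The libraries were stranded, but whether the counting used the strand is not given in the sources used here.

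**Figure D1:**
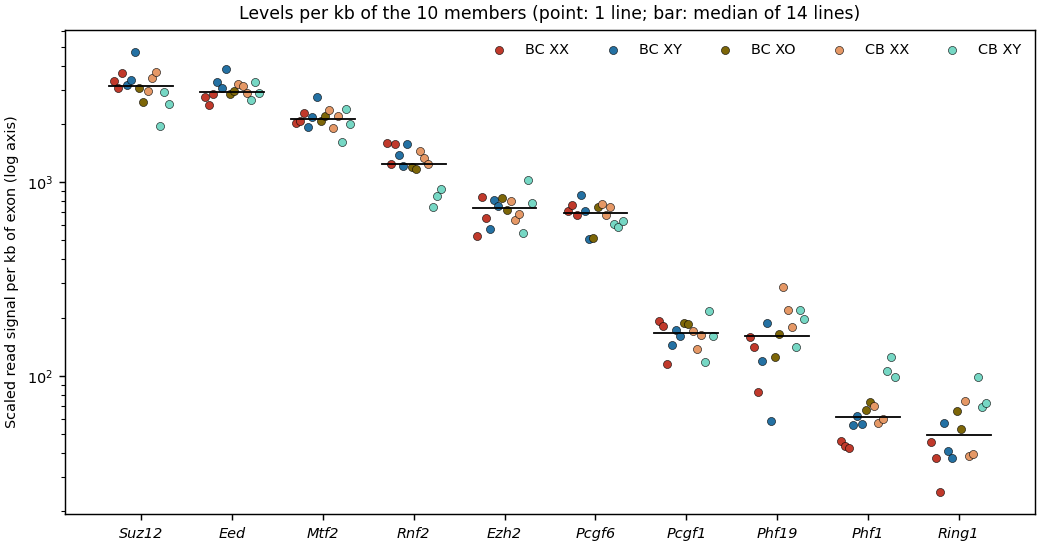
Scaled read signal per kb of merged exon (log axis) for each member, with 1 point per line coloured by group and a bar at the median of 14 lines. *Suz12* and *Eed* lie near 3000, while *Phf1* and *Ring1* lie near 61.1 and 49.3.

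Of the PRC2 members *Ezh2*, *Eed* and *Suz12*, none passed a test in any comparison. *Ezh2*, the methyltransferase, had a scaled read signal of 3253, 5173 and 4044 in BC XX, 3566, 5030 and 4647 in BC XY, 5139 and 4467 in BC XO, 4935, 3937 and 4239 in CB XX and 3393, 6359 and 4864 in CB XY lines. The groups overlapped throughout, and the coefficient of variation over all lines was 18.7%. The highest *Ezh2* value came from CB XY 2, 1 of the lines with raised chromosome 6, on which *Ezh2* and *Pcgf1* lie.

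*Eed*, the subunit that binds the methyl mark, had 6097, 5545 and 6345 in BC XX, 7318, 6807 and 8565 in BC XY, 6311 and 6584 in BC XO, 7167, 6993 and 6415 in CB XX and 5885, 7324 and 6402 in CB XY lines. All BC XX lines lay below all BC XY lines, but within the CB cross the lines of both sexes overlapped. *Eed* varied least of the 10 members over all lines, with a coefficient of variation of 11.3%.

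*Suz12*, the structural subunit, had 16552, 15143 and 18207 in BC XX, 15747, 16714 and 23178 in BC XY, 15175 and 12828 in BC XO, 14687, 17058 and 18424 in CB XX and 9589, 14486 and 12471 in CB XY lines. Each CB XY line lay below each CB XX and each BC XY line. The lowest value was that of CB XY 1, the CB XY line with high *Uty*.

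The Polycomb-like partners differed from each other in pattern. *Mtf2*, the most abundant of them, ranged from 8486 to 14420 and overlapped between all groups. *Phf1* had 112, 105 and 103 in BC XX, 136, 151 and 137 in BC XY, 162 and 179 in BC XO, 171, 139 and 146 in CB XX and 256, 305 and 239 in CB XY lines. The BC XX lines were lowest and the CB XY lines highest, and neither overlapped any other group. *Phf19* had 801, 710 and 417 in BC XX, 600, 949 and 295 in BC XY, 630 and 825 in BC XO, 1446, 1100 and 903 in CB XX and 707, 1098 and 990 in CB XY lines. All CB XX lines lay above all BC XX lines, and *Phf19* varied 4.90-fold from the lowest to the highest line.

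The E3 ligases of PRC1 differed mainly in the CB XY lines. *Rnf2* had 4807, 3761 and 4750 in BC XX, 4182, 3657 and 4768 in BC XY, 3622 and 3544 in BC XO, 4376, 4050 and 3746 in CB XX and 2254, 2567 and 2797 in CB XY lines. The CB XY lines lay below all the other 11 lines. *Ring1* had 148, 123 and 81.5 in BC XX, 186, 133 and 122 in BC XY, 215 and 171 in BC XO, 242, 124 and 128 in CB XX and 321, 224 and 234 in CB XY lines. Here the CB XY lines were high, although CB XX 1 lay among them.

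Of the variant PRC1 subunits, *Pcgf1* had a mean of 142 ± 36.3 (SD, n = 3) in BC XX, 139 ± 12.2 (n = 3) in BC XY, 136 ± 14.9 (n = 3) in CB XX and 144 ± 43.2 (n = 3) in CB XY lines, and of 162 ± 1.43 (n = 2) in XO lines. *Pcgf6* had 2922 ± 171 in BC XX, 2826 ± 711 in BC XY, 2983 ± 199 in CB XX and 2486 ± 82.6 in CB XY lines (n = 3 each), and 2581 ± 659 (n = 2) in XO lines. The group means of *Pcgf1* lay within the spread between lines of a group. For *Pcgf6* the CB XY lines (2407 to 2572) were all below the CB XX lines (2759 to 3136), while the BC lines of both sexes overlapped.

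**Figure D2:**
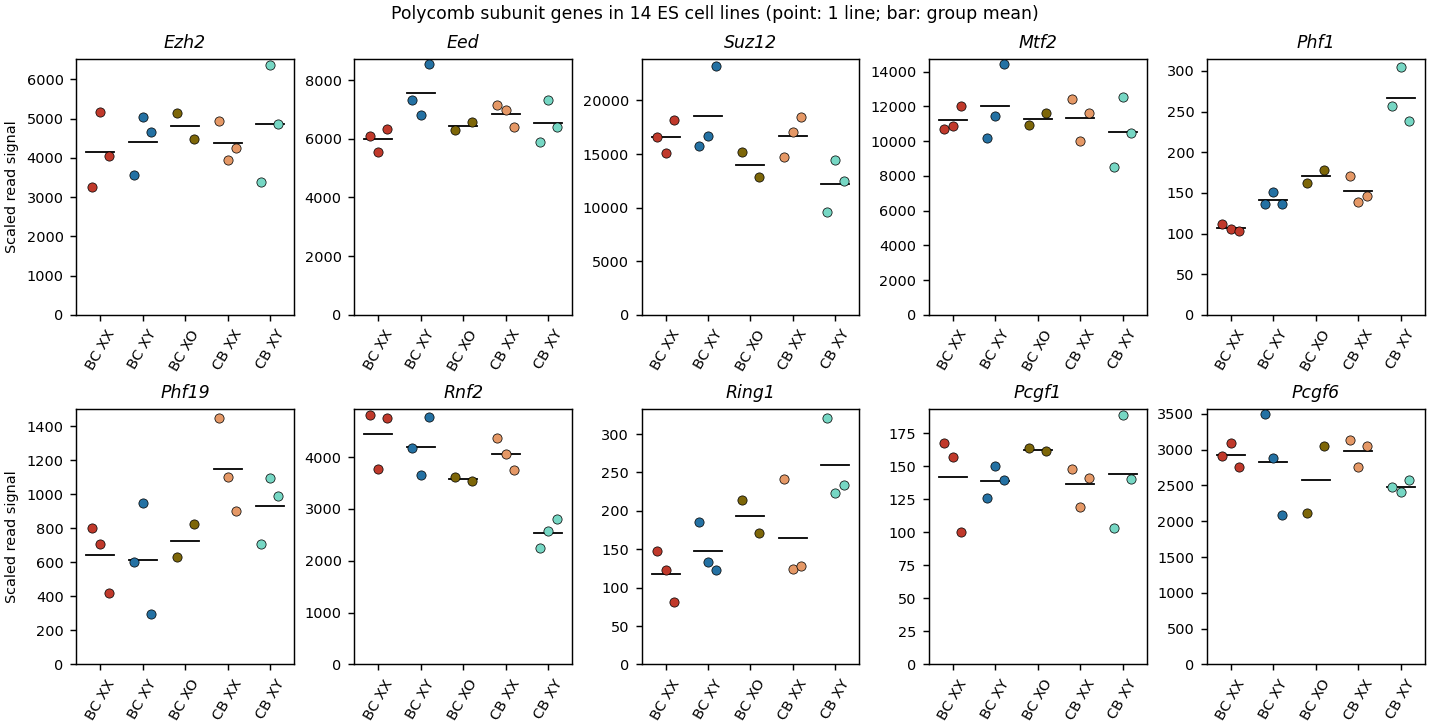
Scaled read signal (linear axis from 0) of the 10 members in each line, with groups on the x axis, 1 point per line and a bar at the group mean. The CB XY lines stand lowest for *Rnf2* (2254 to 2797) and highest for *Phf1* (239 to 305).

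The question of the study was which genes differ with the sex chromosome complement. When the 6 XX lines were compared with the 6 lines labelled XY, none of the 10 members passed an adjusted p of 0.05 in limma, where 5.21% of all 15311 genes tested did. At an unadjusted p under 0.05 there were 2, *Phf1* and *Rnf2*, a share near the 23.1% of all genes. *Phf1* had a log2 difference of -0.59 (SE 0.235, limma, Benjamini-Hochberg adjusted p = 0.154) and *Rnf2* one of 0.38 (SE 0.173, adjusted p = 0.207), and both genes overlapped between the sexes. For the enzyme *Ezh2* the difference was -0.11, with a 95% interval from -0.45 to 0.24. The interval was from -0.36 to 0.10 for *Eed* and from -0.20 to 0.53 for *Suz12*. Differences here are of log2(value + 5), the first group minus the second, and understate the change of low genes. The members' median difference was -0.003, against -0.03 over all genes tested.

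With cross added to the model, *Phf1* was lower in XX lines at the same log2 difference of -0.59 (limma, adjusted p = 0.0254), 1 member of 10 where 11.1% of all genes were called. In the model without cross, leaving out CB XY 2 and CB XY 3 gave *Phf1* a difference of -0.36 (limma, adjusted p = 0.484). The call with cross in the model was not tested without these lines.

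Within the BC cross none of the 10 members passed the test, against 5.7% of 16261 genes. *Eed* and *Phf1* were the 2 members without overlap between the sexes, to be read against 27.1% of all genes. *Eed* was lower in BC XX lines by a log2 difference of -0.33 (SE 0.130, limma, adjusted p = 0.149), and *Phf1* by -0.39 (SE 0.194, adjusted p = 0.250). The high fibroblast RNA of BC XX lines moves with this comparison, and in such bulk samples fewer cells of a type and less RNA per cell cannot be told apart. With the fibroblast level as a covariate 0 members passed, as did only 8 of all genes in place of 927.

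Within the CB cross, *Rnf2* was higher and *Phf1* lower in XX than in XY lines, and the other 8 members did not pass the test. The percent of all genes called was 3.57%, with 2.11% called higher and 1.46% lower. *Rnf2* was 1.60-fold higher in CB XX lines (log2 difference 0.68, SE 0.147, limma, adjusted p = 0.0223). *Phf1* was 1.73-fold lower (log2 difference -0.79, SE 0.194, adjusted p = 0.0380). Groups did not overlap for 4 members, *Suz12*, *Phf1*, *Rnf2* and *Pcgf6*, where 23.2% of all genes did not. *Suz12* had a log2 difference of 0.47 (SE 0.180, adjusted p = 0.179) and *Ring1* one of -0.69 (SE 0.303, adjusted p = 0.238). The median difference of the 10 members was 0.10, against -0.02 over all genes.

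Both calls depended on the CB XY lines. With CB XY lines 2 and 3 left out, the difference was 0.84 for *Rnf2* (limma, adjusted p = 0.109) and -0.74 for *Phf1* (adjusted p = 0.309), with the remaining CB XY line assumed to vary like the other groups. The values of CB XY 1 alone, which has high *Uty*, were 2254 for *Rnf2* and 256 for *Phf1*, outside the ranges of the CB XX lines. Leaving out each of the 6 lines in turn gave adjusted p from 0.0261 to 0.0988 for *Rnf2* and from 0.0444 to 0.153 for *Phf1*. *Rnf2* lost its call without CB XX 1, CB XX 2, CB XY 1 or CB XY 2, and *Phf1* without any line except CB XX 1.

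The sex difference was then compared between crosses. None of the 10 members passed the interaction of sex and cross, and 0.0738% of all genes did (12 genes). The unadjusted p was under 0.05 for 3 of the 10 members and for 9.05% of all genes. *Rnf2* had a difference of differences of -0.60 (SE 0.207, limma, adjusted p = 0.377). For *Suz12* it was -0.61 (SE 0.255, adjusted p = 0.487) and for *Eed* -0.40 (SE 0.184, adjusted p = 0.532). A difference between the crosses in the sex effect on these subunits was not detectable with 3 lines per group.

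**Figure D3:**
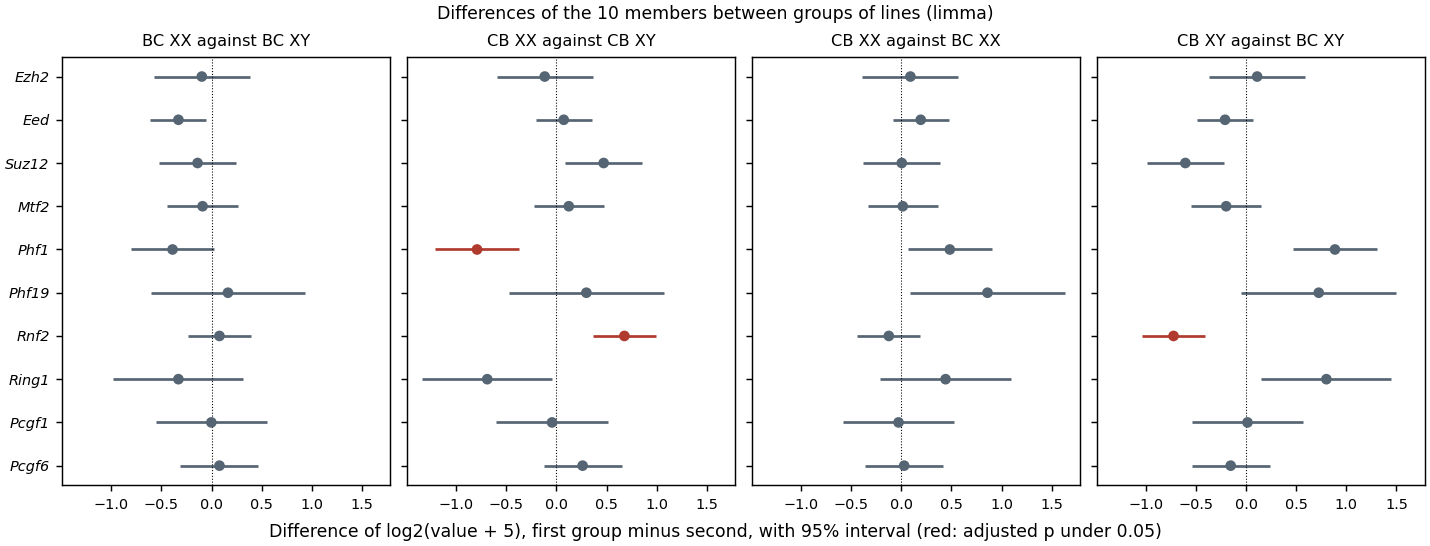
Differences of log2(value + 5) with 95% intervals (limma) for the 10 members in 4 comparisons, first group minus second, with calls at an adjusted p under 0.05 in red. *Rnf2* (0.68) and *Phf1* (-0.79) are called in CB XX against CB XY, and *Rnf2* (-0.72) in CB XY against BC XY.

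Reciprocal crosses of the same sex were compared next, and these comparisons share the CB XY or BC XX lines with those above. Between XY lines, *Rnf2* was 1.65-fold lower in the CB than in the BC cross (log2 difference -0.72, SE 0.147, limma, adjusted p = 0.0402), 1 member of 10 against 0.64% of all genes, of which 0.0922% were lower. *Phf1* was 1.85-fold higher (0.89, SE 0.194, adjusted p = 0.0531), just outside the threshold. *Suz12* had a difference of -0.61 (SE 0.180, adjusted p = 0.104) and *Ring1* one of 0.80 (SE 0.303, adjusted p = 0.176). These 4 members did not overlap between the crosses, and 26.8% of all genes did not either. Without CB XY 2 and CB XY 3, *Rnf2* had -0.89 (adjusted p = 0.251) and *Phf1* 0.84 (adjusted p = 0.352), and when any 1 of the 6 lines was left out the adjusted p of *Rnf2* was 0.0862 to 0.150.

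Between XX lines, none of the 10 members passed, against 7.15% of all genes. *Eed*, *Phf1* and *Phf19* did not overlap, as did 26.8% of genes. *Phf19* was at a log2 difference of 0.86 (SE 0.360, limma, adjusted p = 0.148) and *Phf1* at 0.48 (SE 0.194, adjusted p = 0.134), CB minus BC. *Rnf2*, at -0.12 (SE 0.147), had an interval of -0.44 to 0.19.

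The XO lines have 1 X chromosome and no Y, and address whether a second X goes with a difference. None of the 10 members passed in BC XX against BC XO lines (4.66% of all genes) or in BC XO against BC XY lines (0.00615%, a single gene). *Phf1* had the lowest p in the former, with a log2 difference of -0.65 (SE 0.217, limma, adjusted p = 0.0919), and it was higher in both XO lines than in any BC XX or BC XY line. For XO against XY lines the unadjusted p was under 0.05 for 0 members. The 95% interval for *Ezh2* there was -0.40 to 0.67 and for *Rnf2* -0.57 to 0.13, so that differences of this size cannot be told from none with 2 XO lines.

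The level of the whole chromosome moved with some members and not with others. Pearson's r over the 14 lines was 0.85 for *Ring1*, 0.77 for *Phf1*, 0.71 for *Rnf2* and 0.64 for *Ezh2*. It was 0.37 for *Pcgf1*, 0.10 for *Eed*, -0.09 for *Phf19*, -0.14 for *Pcgf6*, -0.25 for *Mtf2* and -0.40 for *Suz12*. *Rnf2* lies on chromosome 1 (chr1:153316536-153347953 in mm9, minus strand), and the median deviation of the 891 tested genes there was -0.13, -0.14 and -0.08 in the CB XY lines, the lowest of all lines, against 0.30, 0.00 and -0.03 in CB XX lines. *Phf1* (chr17:27070072-27074835) and *Ring1* (chr17:34157737-34161625) lie on chromosome 17. The genes there were at 0.15, 0.11 and 0.08 in the CB XY lines, the highest of all lines. They were at 0.06, -0.19 and -0.03 in CB XX lines and at -0.07, -0.08 and -0.25 in BC XX lines. Shifts in the CB XY lines were not particular to these chromosomes. For example, they were at -0.10, -0.08 and -0.05 on chromosome 3 and at 0.15, 0.10 and 0.07 on chromosome 7. After the level of its own chromosome was subtracted from each gene, *Rnf2* had a difference of 0.47 between CB XX and CB XY (limma, adjusted p = 0.0951) and *Phf1* one of -0.62 (adjusted p = 0.103), both past no threshold. Between CB XY and BC XY lines *Rnf2* was then at -0.62 (adjusted p = 0.0527). All 3 differences kept their direction and were smaller than before the subtraction.

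**Figure D4:**
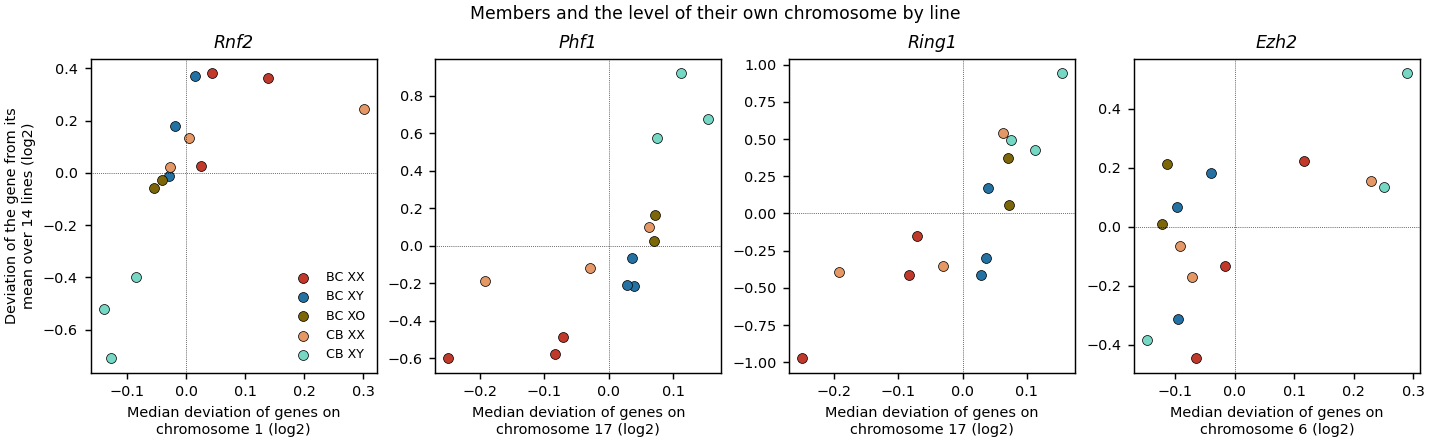
Deviation of *Rnf2*, *Phf1*, *Ring1* and *Ezh2* from their own mean over 14 lines (y axis, log2) against the median deviation of all tested genes on the same chromosome (x axis, log2), with 1 point per line coloured by group. The CB XY lines lie at the low left for *Rnf2* (chromosome level -0.14 to -0.08) and at the high right for *Phf1* and *Ring1* (0.08 to 0.15).

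Polycomb genes outside the 10 members were taken from a list of 39, of which 38 were tested. In XX against XY lines 5 of the 38 were higher in XX (3.21% of all genes were) and 0 lower (1.99%). These were *Rbbp7*, *Bmi1*, *Scmh1*, *Scml2* and *Kdm6a*. The median difference of the 38 was -0.01, against -0.03 over all genes. *Rbbp7*, a histone-binding subunit of PRC2 on the X chromosome, was at 18360 to 21473 in XX and 12732 to 14754 in XY lines, with no overlap and a log2 difference of 0.56 (SE 0.0834, limma, adjusted p = 0.00219). *Kdm6a*, the X-linked demethylase that removes the PRC2 mark, was at 5235 to 7053 and 3107 to 4025 (0.71, SE 0.106, adjusted p = 0.00217). The paper names *Kdm6a* among the factors higher in XX cells, from these same lines, so that its call is not independent evidence. *Scml2*, an X-linked PRC1-associated gene, was at 223 to 879 and 76.7 to 174 (1.57, SE 0.325, adjusted p = 0.0156). The X chromosome as a whole was at 0.28 to 0.48 in XX lines and at -0.46 to -0.15 in the others, and with the chromosome level subtracted *Rbbp7* had -0.09 (adjusted p = 0.580), *Kdm6a* 0.07 (adjusted p = 0.705) and *Scml2* 0.92 (adjusted p = 0.126). Without CB XY 2 and CB XY 3 the XX against XY calls remained for *Rbbp7* (0.53, limma, adjusted p = 0.0174), *Kdm6a* (0.69, adjusted p = 0.0132) and *Scml2* (1.69, adjusted p = 0.0421).

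*Bmi1* (Pcgf4), the Pcgf subunit of a canonical PRC1, lies on chromosome 2 and was at 442 to 1050 in XX and 169 to 445 in XY lines (log2 difference 1.36, SE 0.244, limma, adjusted p = 0.00678). These are the lines in which the study compared the sexes, so that this is not independent evidence. Without CB XY 2 and CB XY 3 *Bmi1* was at 1.35 (adjusted p = 0.0132). The XX against XY call of *Bmi1* was kept in 9 of 9 alternative settings, the fibroblast covariate among them. Its differences there were 0.85 to 1.38 (limma, adjusted p at most 0.0463). It was also kept in 12 of 12 fits that left out 1 line. Within the CB cross *Bmi1* was at 1.04 to 1.22 over the alternative settings and was called in 1 of 9. *Scmh1* was at 350 to 624 and 250 to 397 (0.61, SE 0.163, adjusted p = 0.0446), and lost its call without CB XY 2 and CB XY 3 (adjusted p = 0.0672) and in 9 of the 12 fits that left out 1 line.

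Within crosses, 3 of 38 were higher in BC XX lines (4.46% of all genes), *Rbbp7*, *Bmi1* and *Kdm6a*, and 3 in CB XX lines, *Rbbp7*, *Scml2* and *Kdm6a*. Without CB XY 2 and CB XY 3, which leaves CB XY 1 alone, the CB calls were lost for *Rbbp7* (0.69) and *Scml2* (2.58). The difference of *Kdm6a* was 0.96 there and rests on that single line. In BC XX against XO lines *Rbbp7* was higher (0.46, SE 0.118, limma, adjusted p = 0.0439), as were 3.06% of all genes. *Bmi1* moved with the fibroblast level in the BC cross: its difference was 1.52 (SE 0.331, adjusted p = 0.0175), and -0.06 (adjusted p = 0.975) with that level as a covariate. *Rbbp7* (0.53, adjusted p = 0.382) and *Kdm6a* (0.43, adjusted p = 0.600) also lost their BC calls with this covariate, at differences near those without it, as did *Rbbp7* against XO lines (0.53, adjusted p = 0.268). When 1 line was left out, the BC call was kept in 1 of 6 fits for *Rbbp7*, 0 of 6 for *Kdm6a* and 2 of 6 for *Bmi1*, and the call against XO lines in 0 of 5 for *Rbbp7*. In CB against BC XX lines, *E130012A19Rik* (Epop), a PRC2-associated gene, was higher (2.9% of all genes were) at 10397, 11844 and 2411 against 2376, 2753 and 1918. This call rested on lines CB XX 1 and CB XX 2, while CB XX 3 lay among the BC lines. In XY lines *E130012A19Rik* was at 6489, 7673 and 8190 in the CB cross and at 2806 to 3251 in the BC cross, without a call. *Asxl3* was the 1 lower gene (4.25% of all genes), at a log2 difference of -0.93 (SE 0.261, adjusted p = 0.0457). With the fibroblast covariate neither gene was called (*Asxl3* -0.88, adjusted p = 0.576, and *E130012A19Rik* 1.14, adjusted p = 0.627). Leaving out 1 line kept the call in 2 of 6 fits for *Asxl3* and in 1 of 6 for *E130012A19Rik*.

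The remaining listed genes that were tested did not pass in any comparison. *Ezh1*, the paralog of *Ezh2*, was at 529 to 928 over the 14 lines (XX against XY, -0.18, SE 0.154, limma, adjusted p = 0.516). *Kdm2b*, which brings variant PRC1 to CpG islands, was at 3999 to 5985 (-0.16, SE 0.0959, adjusted p = 0.347). *Cbx7* and *Pcgf2*, canonical PRC1 subunits, were at -0.54 (SE 0.218, adjusted p = 0.158) and -0.46 (SE 0.224, adjusted p = 0.229). *Cbx7* was lower in XX lines with cross as a covariate (adjusted p = 0.0466) or without CB XX 1 (-0.71, adjusted p = 0.0235), and in BC XX against BC XY lines with the replicate number as a block (adjusted p = 0.0330). *Jarid2*, a PRC2 partner, was listed at 0 in both XO lines and at 12517 to 21979 in all others. Highly expressed genes such as *Eef1a1* were also listed at 0 in a group, so that *Jarid2* was not tested.

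**Figure D5:**
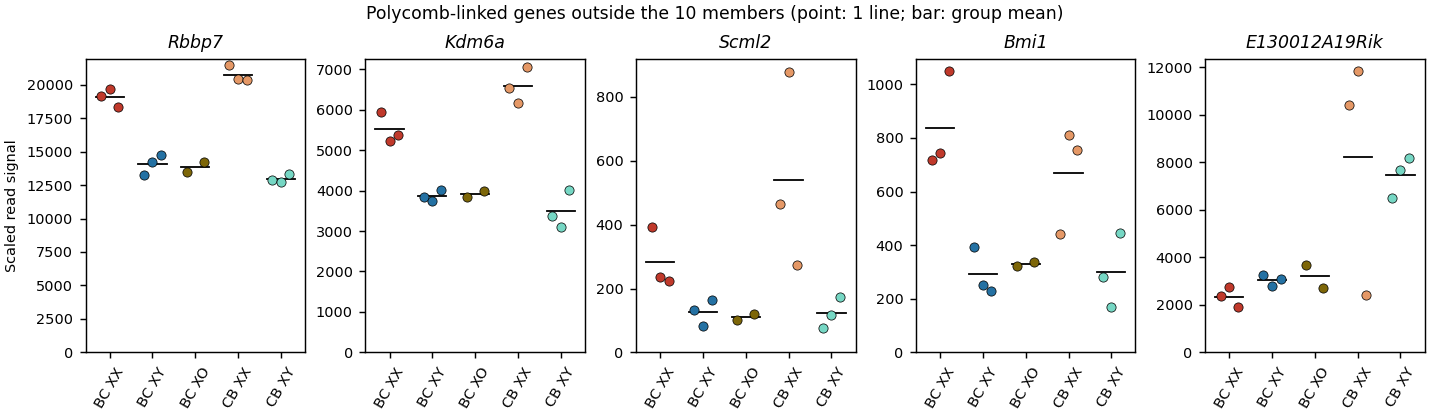
Scaled read signal (linear axis from 0) of 5 Polycomb-linked genes outside the 10 members, with 1 point per line and a bar at the group mean. *Rbbp7* (18360 to 21473) and *Kdm6a* (5235 to 7053) are above all XY lines in every XX line. *E130012A19Rik* is high in 2 of 3 CB XX lines and in the CB XY lines (6489 to 8190).

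Known developmental targets of Polycomb were examined as a list of 24, of which 18 were tested in XX against XY and 20 in the other comparisons. Only *Msx1*, a homeobox gene, was lower in XX lines, 1 of 18 against 1.99% of all genes (6.94 to 15.8 against 22.7 to 199, log2 difference -1.67, SE 0.415, limma, adjusted p = 0.0333). The list's median difference was -0.35, against -0.03 over all genes. The list's median was 0.21 within the BC cross (-0.04 over all genes), where the BC XX lines were high in fibroblast RNA, and -0.37 within the CB cross (-0.02). In the interaction of sex and cross 0 of 20 targets passed, against 0.0738% of all genes. The unadjusted p (limma) was under 0.05 for 4 of the 20, against 9.05% of all genes. A difference between the crosses was thus not detected. Within the CB cross 3 of 20 were lower in XX lines (1.46% of all genes), *Msx1*, the endoderm gene *Foxa2* and the mesoderm gene *T*, and in CB XX against BC XX lines 4 of 20 were lower (4.25% of all genes), *Gata6*, *Sox17*, *Foxa2* and *T*. A list of 10 primitive endoderm markers, which holds *Gata6*, *Sox17* and *Foxa2*, moved with the latter comparison, at a mean log2 level of 6.42 to 6.85 in CB XX and 7.19 to 7.63 in BC XX lines, and its part in the result was not tested. *T* was at 76.8, 21.9 and 367 in CB XX, against 1933, 418 and 1347 in CB XY lines (-3.47, SE 0.854, adjusted p = 0.0387). It was at 1418, 624 and 745 in BC XX lines. With the fibroblast level as a covariate, *Msx1* was at -1.90 in XX against XY lines (adjusted p = 0.0646) and *T* at -1.90 in CB XX against BC XX lines (adjusted p = 0.672), where *Gata6*, *Sox17* and *Foxa2* were not called either (adjusted p = 0.576 to 0.608). Without CB XY 2 and CB XY 3, *Msx1* was at -1.72 in XX against XY lines (limma, adjusted p = 0.0948). In CB XX against CB XY lines this leaves CB XY 1 alone. There *T* lost its call (-4.37), and the difference was -3.07 for *Foxa2* and -3.63 for *Msx1*. CB XY 1 had the highest *Msx1* (199) and *Foxa2* (182) of the lines labelled XY, so that these differences rest on a single high line. Leaving out 1 line kept the CB XX against CB XY call in 2 of 6 fits for *Foxa2*, 2 of 6 for *T* and 1 of 6 for *Msx1*. It kept the CB XX against BC XX call in 4 of 6 fits for *Gata6*, 0 of 6 for *Sox17*, 2 of 6 for *Foxa2* and 1 of 6 for *T*, and the XX against XY call of *Msx1* in 6 of 12. In XX against XY lines *T* was lower only with the fibroblast covariate (-3.57, adjusted p = 0.0229). *Foxa2* and *Gata6* were likewise lower there in 1 of 9 alternative settings each (limma, adjusted p = 0.0227 and 0.0186).

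Other genes whose values followed a member most closely were sought over the 14 lines by Pearson's r of log2(value + 5). They were *Rab7* (0.919), *Znhit6* (0.873) and *Mss51* (0.864) for *Ezh2*, *Smug1* (0.903), *Cnih4* (0.871) and *Manba* (0.866) for *Eed*, and *Fxr1* (0.946), *Hibch* (0.935) and *Atg3* (0.928) for *Suz12*. For *Rnf2* they were *Mpc1* (0.924), *Rpp30* (0.916) and *Tceb1* (0.907), and for *Pcgf1* *Gm5860* (0.823), *Gm5766* (0.807) and *Gm6981* (0.794). Each was picked as the highest among all genes tested, over lines that share cross, depth and chromosome level, and *Rab7* lies on chromosome 6 with *Ezh2*, as *Tceb1* lies on chromosome 1 with *Rnf2*. Members of the same complex were not among them, which says little, because only the closest genes were kept for each. Among the PRC2 members, r ran from -0.64 (*Suz12* and *Phf1*) to 0.70 (*Suz12* and *Mtf2*).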

How the data were processed

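RNA from 14 lines was sequenced as stranded total RNA with single-end reads of 50 bases, aligned by the authors to mm9 with TopHat2 and compared with Cuffdiff (versions not given in the sources used here). The deposited values are a read signal, counts per gene that the authors brought to a common scale, and sum to 28150946 to 30657803 per line. Low values were whole multiples of a step per line (0.407 to 2.46) in 98.0% to 98.4% of cases, and a step was taken as 1 read (1.19e+07 to 6.96e+07 reads per line). Libraries were made in batches whose lines are not given in the sources used here, and separate blastocysts make the lines biological replicates. Column names give the group but not the sample for CB XX lines, which are numbered by column order.

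Values were used as log2(value + 5) and compared with limma 3.58.1 (trended variance, Benjamini-Hochberg adjustment over all genes, threshold 0.05) in R 4.3.3, with Python 3.11.15 for joins. Genes needed a value of 10 or more in at least 6 lines for XX against XY. For the other comparisons they needed it in at least 2 of the 14 lines, the size of the smallest group (BC XO). XX against XY used 12 lines, and the other comparisons 1 model of 5 groups. Not tested were 15 genes, *Jarid2* among them, with 0 throughout a group but at least 100 in other lines. The planned test for counts was not run because the values are scaled and a few of them were not whole multiples of the step. The code was tested on simulated data. Alternatives changed the scaling, filter, pseudocount, lines, covariates and chromosome level. Lengths and mm9 positions are from GENCODE vM1.

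The members and all gene lists were chosen with earlier results of these data known. Named in the text are all members, other Polycomb genes that passed a test, a few listed for their role (*Ezh1*, *Pcgf2*, *Cbx7* and *Kdm2b*), and targets that passed.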

Additional observations from a re-analysis of the deposited data

Results flagged for a closer look

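Among the 6 XX and the 6 XY lines, the highest or lowest line was compared with the others for the 10 members and the other 16 genes followed through all settings (52 groups of 6 lines, of which chance flags about 1 in 20). No member had a line that stood apart. *Cbx7* was 4047 in CB XX 1, against 1394 to 2346 in the other XX lines. *Scml2* was 879 in CB XX 2, against 223 to 465. *Msx1* was 199 in CB XY 1, against 22.7 to 58.8 in the other lines labelled XY, and its difference between XX and XY lines includes that line.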

How the results depend on the processing

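Over all settings, signs of members changed only for differences that were not called. In XX against XY lines 1 member (*Phf1*) was called in place of 0 with cross as a covariate. In CB XX against CB XY lines 0 were called in place of 2 when only these lines were fitted, without CB XY 2 and CB XY 3, and with the chromosome level subtracted, and 0 to 1 when a line was left out. In CB XY against BC XY lines 0 were called in place of 1 without a filter on low values, without CB XY 2 and CB XY 3 and with the chromosome level subtracted, 0 when any line was left out, and 2 with the fibroblast level as a covariate. In the other 5 comparisons 0 members were called in every setting. The cause was not tested.

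Outside the members, *Rbbp7* turned to -0.0918 (XX against XY), to -0.132 within BC and -0.0514 within CB, and to -0.159 against XO lines, and *Kdm6a* to -0.0617 within BC, when the X chromosome level was subtracted. *Bmi1* turned to -0.0618 within BC with the fibroblast covariate. With lengths of the longest transcript, 6 members changed rank in the order of levels per kb.

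Counts over all genes moved as well. Across settings other than left-out lines they ran from 313 to 1697 in XX against XY (797 reported), 8 to 1129 within BC (927), 136 to 774 within CB (581), 37 to 818 in BC XX against BC XO (758), 0 to 5 in BC XO against BC XY (1), 46 to 1179 in CB XX against BC XX (1162), 2 to 1059 in CB XY against BC XY (104) and 2 to 25 for the interaction (12). The lowest counts for BC XX lines came with the fibroblast covariate. Keeping the genes listed at 0 was a setting chosen after seeing the data.

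Replicate numbers did not pair the lines: deviations of same-numbered lines correlated from -0.49 to 0.27, and 2 of 6 lines (BC XX and BC XY) and 3 of 6 (CB XY and BC XY) correlated best with their own number. With the replicate number as a block, 0 members were called in BC XX against BC XY, BC XX against BC XO and BC XO against BC XY and 1 in CB XY against BC XY, and the count of all genes was 368 in place of 104 in the last of these and 332 in place of 758 in BC XX against BC XO. A block was not possible for comparisons with CB XX lines, whose column numbers could not be matched to the labels. The planned count test was not run. Depth limits *Pcgf1*, *Ring1* and *Phf1* most, with as few as 51.0, 83.0 and 105 reads in a line.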
